A study of Mus musculus with 4 samples.

Results

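Protease-activated receptors (PARs) and the genes of plasminogen activation were followed in C2C12, a mouse myoblast cell line, after depletion of the RNA-binding protein gene Fxr1. The 9 genes were the receptors F2r, F2rl1, F2rl2 and F2rl3, the tissue factor gene F3, the activators Plau and Plat, the receptor Plaur and the inhibitor Serpine2. They were taken by gene name, with all 11 of their probes, among the 23581 genes that the array probes could be named for. The set was put together by function with the siFxr1/siControl differences of these same arrays known, so it counts as selected on those differences, and F2rl3 is on the study's own list of altered transcripts. Every value of siFxr1 against siControl for these genes is therefore a description and carries no test.

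PARs are G protein-coupled receptors that a protease switches on by cutting their extracellular end, which exposes a tethered ligand. Thrombin is the classical activator of PAR1, PAR3 and PAR4, and trypsin-like proteases cut PAR2. Tissue factor starts the clotting cascade that makes thrombin, while urokinase and tissue-type plasminogen activator turn plasminogen into plasmin, a protease that dissolves fibrin and matrix. In muscle, urokinase and its receptor are known for their part in myoblast migration and regeneration.

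C2C12 cells were transfected transiently with siFxr1, siRNA against Fxr1, or with siControl, a random siRNA of matching GC content, and analysed 48 hours later. Each condition had 2 arrays, 1 from experiment 1 and 1 from experiment 2, which the methods describe as biological replicates. The model is 1 established cell line and 1 knockdown approach, and all 4 cultures were transfected, so no array shows untransfected cells. By the sample titles, each experiment had a slide of its own that held 1 array of each condition, so culture and slide cannot be told apart. In bulk RNA, fewer cells expressing a transcript and less of it per cell cannot be told apart either.

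The knockdown was visible on the arrays. The brighter Fxr1 probe had a normalized log2 signal of 13.84 and 13.71 in siControl and of 10.15 and 10.77 in siFxr1, and its other probe differed by -3.61. RNA integrity numbers were 9 and 9 in siControl and 8 and 9 in siFxr1. Between 45.4% and 52.9% of the probes were well above background on an array, a mark that the scanner software sets for each spot. Of 6 myoblast markers, 5 were well above background on all 4 arrays, and Myf5 was not on any. Of 6 platelet and megakaryocyte markers, Itga2b, Gp9 and Gp6 were not well above background on any array. The other 3 were on all 4, with siFxr1/siControl differences of -0.76 for Gp1bb, -1.003 for Pf4 and 0.29 for Ppbp. Of the 6 macrophage markers, Ptprc, Emr1 and Fcgr1 were not well above background on any array. Csf1r and Itgam passed on all 4, with differences of 0.85 and 0.25, and Cd68 on 1 array of each condition, with -0.92.

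The probes that carry the results below are shown by sequence, as printed in the scanner files, because each value is the brightness of 1 such 60-base probe and no gene is measured along its length. Positions are those of the array annotation, on mm9. The pair of F2rl3 probes lies on chromosome 8, at chr8:75287099-75287158 and chr8:75286711-75286770 on the plus strand, 388 bases apart both in the genome and in the transcript NM_007975, so no intron separates their starts. The Serpine2 probe (chr1:79793476-79796093, minus strand, NM_009255) covers 2618 bases of genome with 60 bases of sequence and therefore crosses an intron. Of the Plau probe (chr14:21662242-21662301, plus strand, NM_008873), the first 30 bases are given.
F2rl3 brighter probe, A_55_P2011573: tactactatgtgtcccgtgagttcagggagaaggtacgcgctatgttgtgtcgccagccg
F2rl3 dimmer probe, A_51_P431636: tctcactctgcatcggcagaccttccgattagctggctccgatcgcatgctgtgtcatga
Serpine2 probe, A_51_P268094: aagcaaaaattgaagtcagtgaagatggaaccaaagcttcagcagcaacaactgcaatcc
Plau probe, A_52_P302433, first 30 bases: gtgtatttctgtatctaactgcaagtctag
Both F2rl3 probes hold 33 G or C among their 60 bases, which is 55.0% of each.

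Of the 9 genes, 7 were well above background on all 4 arrays, F2rl3 was so only in siFxr1, and F2rl1 was on none. F2rl3 and Plau were at least 2-fold higher in siFxr1 than in siControl in both experiments. That is 2 genes, and 0 of the 9 were at least 2-fold lower in both. The background was the 14360 genes whose brightest probe passed the software's mark on both siControl or both siFxr1 arrays. Among these, 318 were at least 2-fold higher in both experiments, which is 2.21%, and 211 were at least 2-fold lower, which is 1.47%. Since the choice of the genes used this contrast, nothing is read from the comparison of these shares. Of the 8 detected genes, 6 were higher in siFxr1 in both experiments, against 35% of all genes, and Plat and Plaur went opposite ways. The median log2 difference of the 8 genes was 0.31, and it was 0.02 over all genes. F2rl3 is among the 8 only through its siFxr1 arrays, where it is high. These values too come from the contrast used in the choice, so nothing is read from them.

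**Figure D1:**
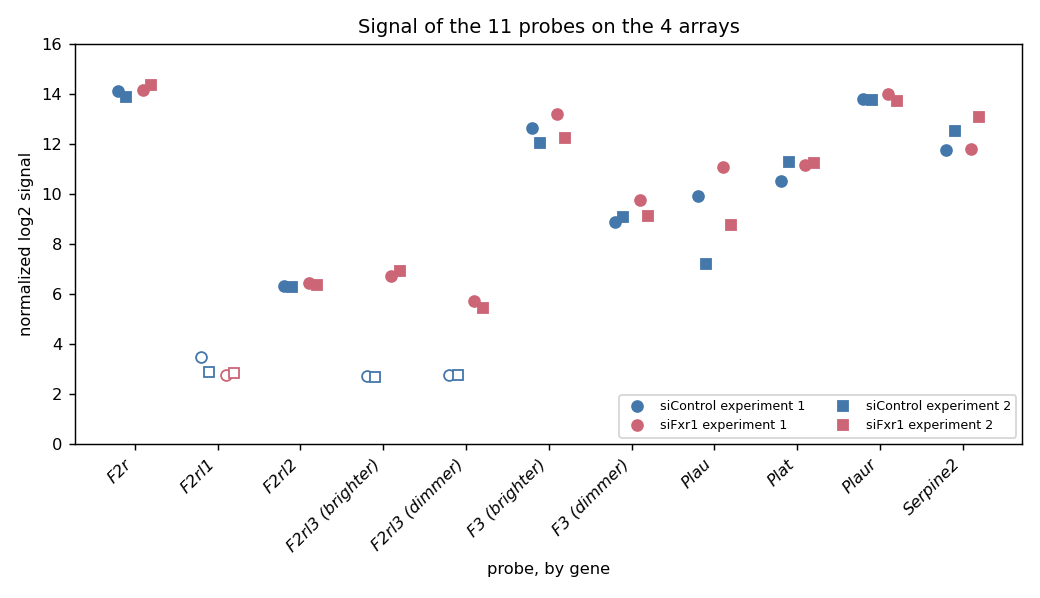
Normalized log2 signal of the 11 probes of the 9 genes on each of the 4 arrays (circles, experiment 1; squares, experiment 2; blue, siControl; red, siFxr1). Open symbols mark a condition in which the probe was not well above background on either array. F2rl3 has open symbols in siControl and filled ones in siFxr1 at both probes, and Plau differs more by experiment than by condition. Levels of different probes cannot be set against each other.

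Among the receptors, F2rl3, which encodes PAR4, stood apart. Its brighter probe had a normalized log2 signal of 2.70 and 2.66 in siControl and of 6.71 and 6.90 in siFxr1, in experiments 1 and 2. Before normalization the background-corrected intensities were 6.55 and 7.10 in siControl and 75.01 and 159 in siFxr1. The siControl spots were below the mark on both arrays and the siFxr1 spots passed it on both. The conditions thus did not overlap, and the fold was given as a bound against a floor. That bound sets the siFxr1 mean against the dimmest signal that counted as well above background on each siControl array, 4.49 and 4.65. It is not a strict lower bound, since brighter spots can miss the mark. Another gene missed it at 5.25 in siControl of experiment 1.

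On that basis siFxr1 exceeded the siControl floor 4.72-fold for F2rl3. The bound was 4.68-fold in experiment 1 and 4.76-fold in experiment 2. The measured difference, 4.13 on the log2 scale (SE 0.16 without and 0.20 with the experiment as a block), contains siControl values below the detection mark. The dimmer probe went the same way, with 2.75 and 2.75 in siControl, not well above background, and 5.73 and 5.44 in siFxr1. Its bound against the same floor was 2.03-fold, from 2.37-fold in experiment 1 and 1.73-fold in experiment 2.

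F2rl3 belonged to the 145 genes that missed the background mark on both siControl arrays and passed it on both siFxr1 arrays, while 29 genes showed the reverse. The size of its difference depended on how the background was treated. With no background correction the difference was 1.08 and the bound 1.71-fold, and in the authors' normalized table, which shows no background subtraction, the experiments gave 0.93 and 1.23. The direction was the same under every processing tried.

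Endothelial cells are among the cell types that express several of these genes, so their 6 markers are given beside F2rl3. Cdh5 and Kdr were well above background on all 4 arrays, with differences of -0.37 and 0.70 for Cdh5 and of 0.50 and 0.10 for Kdr in experiments 1 and 2. Pecam1 was so on 1 siControl array and both siFxr1 arrays, with differences of 1.02 and 0.07, and Tek on 1 siFxr1 array alone, with a mean difference of 1.14. Tie1 and Esam were on none. The mean difference was above 0 for all 6, but Tie1 and Esam were not detected and Cdh5 changed direction between the experiments. Over all genes the median difference was 0.02, so nothing is read from that count. The summed normalized signal of the list was 3176 and 3478 in siControl and 4436 and 3768 in siFxr1. Its part in the values of F2rl3, Tfpi and Procr was not tested.

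The other PAR genes showed smaller values. F2r, which encodes PAR1, the main thrombin receptor of many cell types, had a normalized log2 signal of 14.10 and 13.88 in siControl and of 14.17 and 14.37 in siFxr1. Both siFxr1 values lay above both siControl values, by 0.07 in experiment 1 and 0.48 in experiment 2, with a difference of 0.28 (SE 0.18). The software's own error for a difference between 2 F2r spots was 0.20, so the first was smaller than the spot error. F2rl2, which encodes PAR3, a thrombin receptor that can act as a cofactor for PAR4, had 6.32 and 6.26 in siControl and 6.44 and 6.37 in siFxr1. Its differences of 0.12 and 0.11 were below the spot errors of 0.30 and 0.25.

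F2rl1, which encodes PAR2, had 3.48 and 2.89 in siControl and 2.77 and 2.84 in siFxr1. None of these was well above background, so no fold is given. The genes F2rl1, F2r and F2rl2 lie in this order on chromosome 13. Their probes, at chr13:96282038-96282097, chr13:96371902-96371961 and chr13:96471885-96471944 on mm9, are 89.9 kb and 99.98 kb apart, and in the RefSeq table of GRCm38.p6 F2rl2 lies inside the span of Iqgap2. F2rl3 is on chromosome 8, away from these genes. Of these 4 receptor genes, only F2rl3 was at least 2-fold higher in both experiments.

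**Figure D2:**
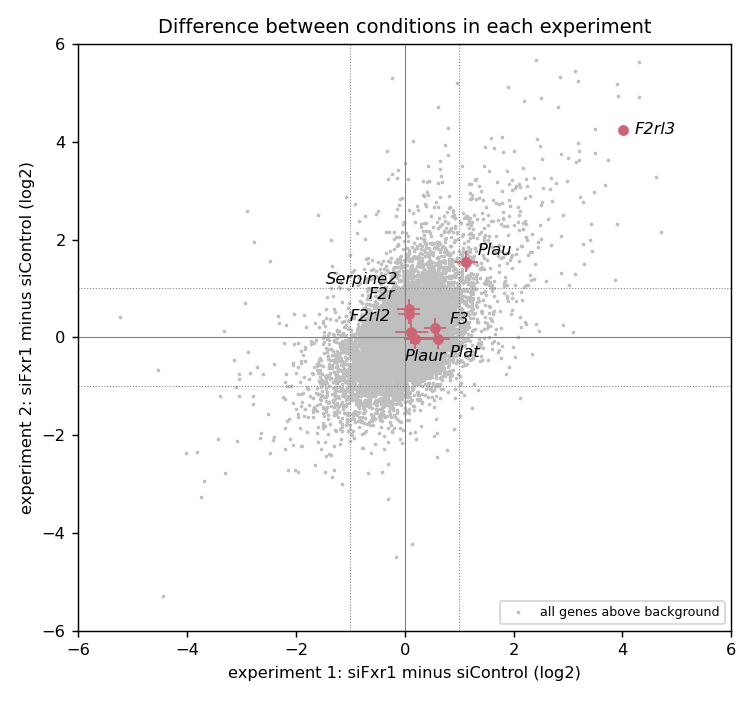
Log2 difference of siFxr1 minus siControl in experiment 1 (horizontal) and in experiment 2 (vertical). Grey points are the 14360 genes above background and red points the 8 detected genes of the set at their brighter probe. Bars are the software's spot error of a difference, and F2rl3, not well above background in siControl, has none. Dotted lines mark a 2-fold difference. F2rl3 lies at 4.02 and 4.24 and Plau at 1.13 and 1.54, and the other 6 lie inside the dotted lines.

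F3, which encodes tissue factor, the cell-surface starter of clotting, had a normalized log2 signal of 12.65 and 12.03 in siControl and of 13.20 and 12.22 in siFxr1 at its brighter probe (chr3:121437717-121437776). The conditions overlapped, since siControl of experiment 1 was above siFxr1 of experiment 2. The differences within the experiments were 0.55 and 0.19. The dimmer F3 probe (chr3:121434609-121435346), which crosses an intron, had 8.89 and 9.06 in siControl and 9.75 and 9.11 in siFxr1, with differences of 0.86 and 0.05. Both probes were thus higher in siFxr1 of experiment 1 by more than the spot error of 0.20 or 0.21, and differed by less than it in experiment 2.

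Plau, which encodes urokinase, was the other gene that was higher in siFxr1 by at least 2-fold in both experiments. In experiment 1 its normalized log2 signal was 9.93 with siControl against 11.07 with siFxr1. In experiment 2 it was 7.20 against 8.75. The background-corrected intensities were 985 and 1777 in experiment 1, and 176 and 537 in experiment 2. All 4 spots were well above background, and within each experiment siFxr1 was higher, by 1.13 and 1.54, which is 2.19-fold and 2.91-fold. Across the experiments the conditions overlapped, because siControl of experiment 1 was above siFxr1 of experiment 2.

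The mean difference of Plau was 1.34, with an SE of 1.41 without a block and of 0.22 with the experiment as a block. Under the other processings both experiments stayed above 1, from 1.09 upward. The unblocked mean turned on single arrays. It was -0.03 without siControl replicate 2, 0.18 without siFxr1 replicate 1, 2.50 without siFxr1 replicate 2 and 2.70 without siControl replicate 1, since each of these leaves the conditions with unequal shares of the experiments.

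The remaining genes of plasminogen activation differed less between the conditions. Plat, which encodes tissue-type plasminogen activator, had 10.52 and 11.27 in siControl and 11.14 and 11.23 in siFxr1 (chr8:23892531-23892590). It was 0.62 higher in siFxr1 of experiment 1, and in experiment 2 the difference was -0.04, below the spot error of 0.20. Plaur, the urokinase receptor gene, had 13.80 and 13.78 in siControl and 13.995 and 13.74 in siFxr1 (chr7:25260569-25260628). Its differences of 0.19 and -0.04 were both below the spot error, and the second was 0.02 when the arrays were scaled to their 75th percentile.

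Serpine2 encodes protease nexin-1, a cell-associated inhibitor of thrombin, urokinase and plasmin. In experiment 1 its normalized log2 signal was 11.74 with siControl against 11.81 with siFxr1, and in experiment 2 it was 12.50 against 13.09. The conditions overlapped, and the differences within the experiments were 0.07 and 0.58. Among the genes from tissue factor onwards, Plau was thus the only one above 2-fold in both experiments, while its receptor, the other activator and the inhibitor were below 2-fold in each.

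Across all probes, the siFxr1/siControl contrast had no calls on this signal. limma without a block called 0 of 55681 probes, which is 0%, at a B value above 0 or an adjusted p under 0.05, while 2764 had a p under 0.05 before adjustment. A fit of the 25540 probes that passed the background mark, with the experiment as a block, called 354, which is 1.39%, and both F2rl3 probes were among them. Both entered this fit only through their siFxr1 arrays, where they are high. Their siControl signals lie below the background mark, where they hardly differ between the arrays. The set was also chosen with this contrast known, so the calls of F2rl3 are given as a description and nothing is read from them. With 2 arrays against 2, an exact permutation test of 1 gene cannot go below a two-sided p of 0.333.

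**Figure D3:**
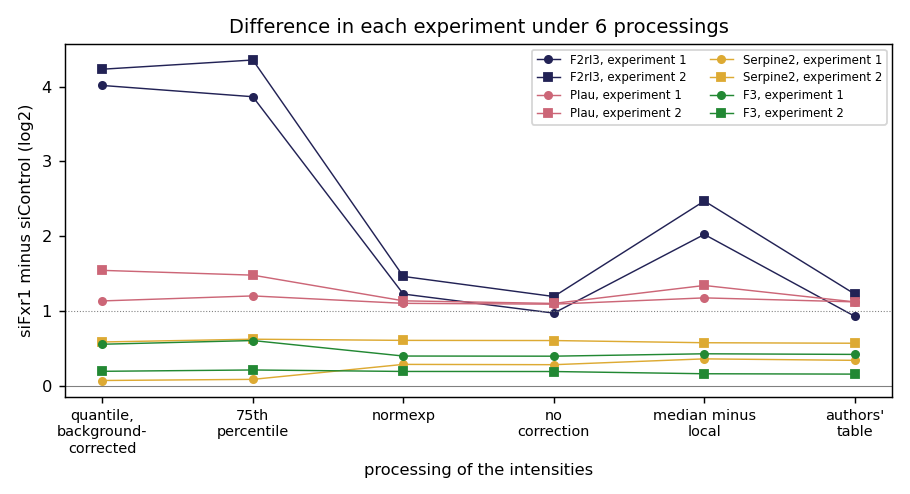
Log2 difference of siFxr1 minus siControl in each experiment for F2rl3, Plau, Serpine2 and F3 (brighter probes) under 6 ways of processing the intensities, joined by lines for reading only. The dotted line marks a 2-fold difference. F2rl3 runs from 4.02 and 4.24 down to 0.93 and 1.23, and Plau stays between 1.09 and 1.54.

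The difference between the experiments was not used to choose the genes and was tested with the condition as a term. Plau had the largest such difference in the set. Experiment 2 minus experiment 1 was -2.73 in siControl and -2.32 in siFxr1, so that experiment 1 was 5.75-fold higher (log2 difference -2.52, SE 0.22). The limma adjusted p over all probes was 0.108, with an unadjusted p of 0.00124. No probe had a lower adjusted p, but many probes share this Benjamini-Hochberg value, so it does not rank Plau first. Among the 14360 genes, Plau was 106 by the size of this difference, and it was the 1 gene of the set at least 2-fold lower in experiment 2 in both conditions, as were 4.51% of all genes.

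Serpine2 went the other way. It was higher in experiment 2 by 0.76 in siControl and by 1.28 in siFxr1, a fitted difference of 1.02 (SE 0.24, 2.03-fold, limma adjusted p = 0.178). The brighter F3 probe was lower in experiment 2, by -0.62 in siControl and -0.98 in siFxr1 (fitted -0.80, SE 0.22, limma adjusted p = 0.207). Its dimmer probe did not share this direction in siControl, where it differed by 0.17, and differed by -0.64 in siFxr1. For F2r, F2rl2, Plat and Plaur the fitted differences were between -0.14 and 0.42, with limma adjusted p between 0.512 and 0.990.

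At the adjusted p of 0.05, limma called 0 of 55681 probes between the experiments, 0%, and 0 probes of the set. At an unadjusted p under 0.05 there were 11172 probes in all and 3 of the set, those of Plau, Serpine2 and the brighter F3 probe. With only the 25540 probes well above background, 4342 were called, which is 17%, and Plau (limma adjusted p = 0.0054) and Serpine2 (limma adjusted p = 0.0454) were among them. The median size of the experiment difference was 0.28 over the 8 detected genes and 0.41 over all genes, and these medians carry no test. For 5 genes, those of F3, Plau, Plat, Plaur and Serpine2, the experiment difference was larger in size than the condition difference at the brightest probe. The dimmer F3 probe showed the reverse, with -0.24 between the experiments and 0.46 between the conditions. No share of all genes is set beside this count, so nothing is read from it.

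Myog, the myogenin gene that marks myoblasts entering differentiation, moved with the experiments too, with 15.64 and 13.50 in siControl and 15.51 and 13.42 in siFxr1. It was 2.12 higher in experiment 1, the direction of Plau and opposite to that of Serpine2. The part of differentiation state in these differences was not tested.

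**Figure D4:**
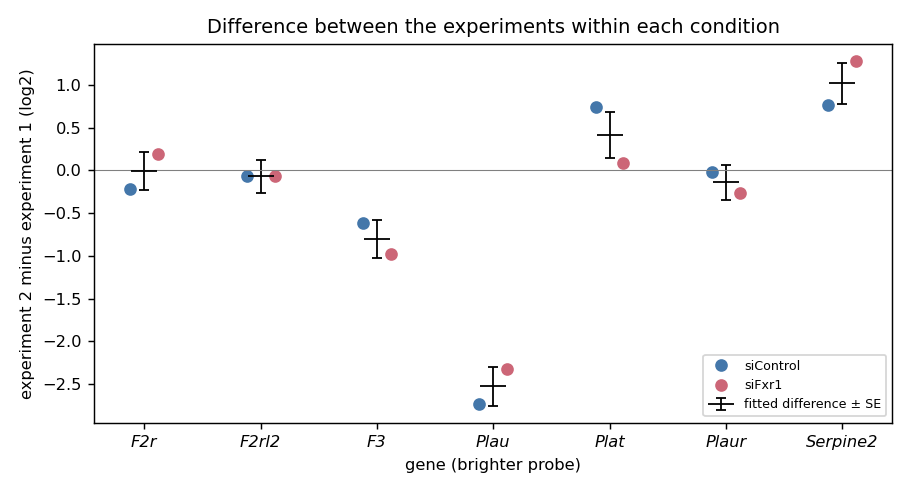
Log2 difference of experiment 2 minus experiment 1 within siControl (blue) and within siFxr1 (red) for the 7 genes detected on every array (brighter probe). The black dash and bar are the difference fitted by limma with the condition as a term and its SE. Plau lies at -2.73 and -2.32, Serpine2 at 0.76 and 1.28, and F2rl2 close to 0.

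A further 103 genes of the pathway were listed in 6 groups, and 62 of them were above background. Of these, 3 were at least 2-fold higher in siFxr1 in both experiments and 3 at least 2-fold lower, beside 2.21% and 1.47% of all genes. Their median difference was 0.08. Of the 62, 26 were higher in both experiments and 19 lower in both, beside 35% of all genes higher in both. No share of all genes is given for lower in both, and nothing is read from the counts by group below. The 3 at least 2-fold higher were F2, Serpind1 and Serpinb2. Each was well above background on only 1 siControl array, so each passed the filter only through its siFxr1 arrays, where it was high. The filter thus favours this count, and nothing is read from it. Serpinc1, Serpini1, Prss2 and Ctss below also passed only through siFxr1. With no background correction, F2, Serpind1 and Serpinb2 did not remain at 2-fold in both experiments. The 3 at least 2-fold lower were Lrp8, Plcb4 and Arhgef1, and Plcb4 and Arhgef1 remained under every processing at the probe that stood for each gene.

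Of the clotting proteases, cofactors and fibrinogen genes, 6 of 16 were above background, 5 were higher in both experiments and 1 was lower in both. F2, which encodes prothrombin, had 7.11 and 4.84 in siControl and 8.99 and 6.36 in siFxr1, so it was 1.88 and 1.52 higher within the experiments while siControl of experiment 1 was above siFxr1 of experiment 2. Kng1, the kininogen gene, was higher by 0.54 and 2.68. Pros1, which encodes the anticoagulant cofactor protein S, was higher by 0.19 and 0.75, and F8, the factor VIII gene, by 0.04 and 0.51.

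Among the clotting inhibitors and thrombin-binding receptors, 6 of 10 were above background, 3 were higher in both experiments and 0 were lower in both. Serpind1, which encodes heparin cofactor II, a thrombin inhibitor, had 5.70 and 2.89 in siControl and 7.00 and 6.11 in siFxr1. Tfpi, which encodes the inhibitor of the tissue factor complex, was higher by 0.67 and 2.10 at its brightest probe, and its other probes gave mean differences of 0.34 and 0.97. Serpinc1, the antithrombin gene, was higher by 0.48 and 0.21. Thbd, which encodes thrombomodulin, differed by -0.24 and 0.14, and Procr, the gene of the endothelial protein C receptor, by -0.50 and 1.54, so neither had 1 direction.

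Plasminogen itself was not detected, since the Plg probe was not well above background on any array. Of the 13 genes of plasminogen and its activation inhibitors, 7 were above background, and 3 were higher and 2 lower in both experiments. Serpinb2, which encodes a urokinase inhibitor, had 5.21 and 5.24 in siControl and 6.57 and 8.33 in siFxr1. Serpini1, the gene of neuroserpin, an inhibitor of tissue-type plasminogen activator, missed the background mark in siControl. Its bound was 1.98-fold, from 2.82-fold in experiment 1 and 1.39-fold in experiment 2. In experiment 2 its own siControl signal, 4.75, lay above the floor and was used instead. Its other probe was not well above background on any array. Serpinb9, a granzyme B inhibitor gene, was lower by -0.72 and -0.86.

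Among the proteins that bind or clear plasminogen and its activators, 15 of 17 genes were above background, 7 higher and 5 lower in both experiments. Lrp8, an endocytic receptor of the LDL receptor family, had 9.67 and 9.04 in siControl and 8.63 and 7.82 in siFxr1, but its other probe gave a mean difference of -0.30. Igf2r, which encodes the mannose-6-phosphate receptor that can bind the urokinase receptor, was higher by 0.66 and 2.10. Of the 5 integrin genes in the group, 3 were higher in both experiments, Itgav by 1.55 and 0.49, Itgb3 by 0.45 and 1.18 and Itgb1 by 0.74 and 0.33. Itga3 was lower, with -0.69 and -1.19, and Itgam differed by 0.70 and -0.19.

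Of 24 other proteases that can cut PARs, only 6 were above background, with 2 higher and 2 lower in both experiments. Prss2, a trypsin gene, differed by 0.62 and 2.24 and the cathepsin gene Ctss by -0.88 and 2.14, and each was well above background on only 1 siControl array. Tpsb2, a mast cell tryptase gene, differed by -0.71 and -0.12, and Elane, the neutrophil elastase gene, by 0.00 and -0.61.

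The G proteins, arrestins and effectors through which PARs signal were nearly all detected, 22 of 23, with 6 higher and 9 lower in both experiments and a median of -0.16. Plcb4, which encodes a phospholipase C beta that Gq proteins switch on, had 12.11 and 11.67 in siControl and 10.15 and 10.05 in siFxr1. The conditions did not overlap, the differences within the experiments were -1.96 and -1.62, and its other probes gave -1.82 and -1.69. Arhgef1 encodes a guanine nucleotide exchange factor that acts downstream of G12 and G13 proteins. It had 13.80 and 14.82 in siControl and 12.73 and 13.24 in siFxr1. Its other probe gave a mean of -1.28, from -0.77 in experiment 1, short of 2-fold, and -1.80 in experiment 2. Plcb3, a further phospholipase C beta gene, was lower by -0.78 and -0.77, while Gnai1, an inhibitory G protein subunit gene, was higher by 0.62 and 1.37.

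**Figure D5:**
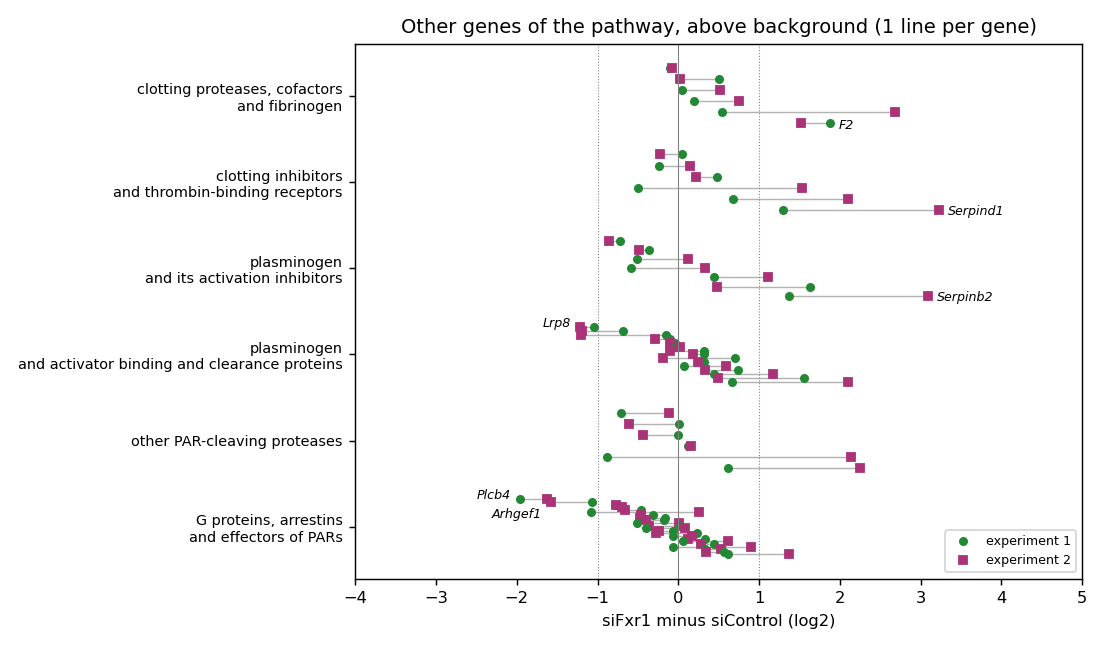
Log2 difference of siFxr1 minus siControl in experiment 1 (circles) and experiment 2 (squares) for the 62 other pathway genes above background, 1 line per gene, in their 6 groups. Dotted lines mark a 2-fold difference, and the 6 genes beyond it in both experiments are named. F2, Serpind1 and Serpinb2 lie to the right and Lrp8, Plcb4 and Arhgef1 to the left.

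The 5 genes whose pattern over the 4 arrays was nearest to that of F2rl3, by Euclidean distance after each was centred on its mean, were Stmn3 (0.45), Mctp2 (0.62), Itln1 (0.69), Bcl2a1d (0.70) and Fthl17d (0.75). Of these, Mctp2 alone was well above background in siControl, with 7.19 and 7.49 there and 10.68 and 11.27 in siFxr1. The other 4 were, like F2rl3, well above background only in siFxr1. A distance over 4 arrays is a description of these arrays.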

How the data were processed

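RNA of C2C12 cells was measured on 4 one-colour arrays, 2 per condition, assigned by their labels. The authors deposited spot intensities from Agilent Feature Extraction 10.7.3.1, background-corrected within the array and not normalized between arrays, and a table of quantile-normalized intensities, used as an alternative. In R 4.3.3 with limma 3.58.1, log2 of the background-corrected intensity was quantile-normalized between arrays on the 59305 non-control spots. Outlier spots, 145 to 177 per array, were set to missing, and spots of a probe were averaged. Arrays give no read depth, and the number of arrays limits the precision. Gene names came from a RefSeq table for 31007 of 55681 probes, and the brightest probe stood for a gene.

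The siFxr1/siControl fit held only the condition. The paper's methods name limma, quantile normalization, means of ratios and the B value, and no block, so a fit of the 4 ratios was an alternative. These ratios pair every siFxr1 array with every siControl array, so they share arrays and are not independent observations. The experiment was a block in an alternative, since the sample titles give each experiment its own slide. Deviations of same-numbered arrays from their condition means correlated at 0.71 over 25523 probes. Adjusted p-values are Benjamini-Hochberg over all probes tested. The fits were tested on simulated data.

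The genes, the pathway and marker lists and the tests were chosen with earlier results of these data known. Named genes were all 9 genes of the set, Fxr1, up to 4 genes per pathway group by size of difference, Thbd, Procr, Tfpi and Plg, and the 5 nearest to F2rl3. One further named gene is not reported here. Myog, Itgb1, Itgb3, Itgam and the markers with values were added after their values were seen. Neuron and glia markers (3 of 6 above background on all arrays) were also listed.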

Additional observations from a re-analysis of the deposited data

Results flagged for a closer look

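The difference between siFxr1 and siControl had opposite signs in the experiments for both activation genes below, with 1 pair of arrays in each experiment. The values of experiment 2 were smaller than the spot error, so their sign is not settled. Whether the experiments differ was not tested. Plat was 0.62 higher in siFxr1 of experiment 1, and its difference was -0.037 in experiment 2, below the spot error of 0.20. Plaur had differences of 0.19 and -0.043, both below the spot error of 0.20, and the second was 0.02 with scaling to the 75th percentile.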

How the results depend on the processing

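Called probes between siFxr1 and siControl numbered 0 without a block, and 0 with the experiment as a replicate block. They were 354 with the replicate block and only probes well above background, and 1107 with the 4 siFxr1/siControl ratios as observations. Both F2rl3 probes were called each time. The 4 ratios share arrays and are not independent, so the 1107 calls overstate the evidence. In the fit with 354 calls, the F2rl3 probes passed the filter only through siFxr1, where they are high. Nothing is read from either call of F2rl3. Leaving out an array gave 0 to 0. Genes of the set called between the experiments numbered 0 on the main signal, 1 (Plau) with scaling to the 75th percentile, with the median signal minus local background or with a trend in the variance prior, and 2 (Plau and Serpine2) with normexp, no background correction, the authors' table or only probes well above background. Of all probes tested, 0% were called on the main signal and 17% with only probes well above background. For the other settings no share of all probes is given, so nothing is read from these counts. Genes at least 2-fold different in both experiments numbered 2, and 1 (Plau) with no background correction and in the authors' table. Other pathway genes numbered 6, 3 with the median signal minus local background, and 2 (Plcb4 and Arhgef1) with normexp, no background correction and the authors' table. The bound of F2rl3 against the siControl floor was 4.72-fold, and 1.94-fold with normexp, 1.71-fold with no background correction, 3.62-fold with the median signal minus local background and 2.05-fold in the authors' table. It was 4.43-fold to 5.03-fold with an array left out. Of 101 single-gene values under an alternative, 88 moved by less than the SD between replicates. The 101 include the values with an array left out. With 2 arrays per condition, that SD limits by arithmetic how far these can move, so the count does not measure their stability.

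With an array left out, the unblocked difference changed sign for F3 (-0.12 to 0.86), Plat (-0.08 to 0.66), Plaur (-0.05 to 0.21), Plau (-0.03 to 2.70) and Serpine2 (-0.31 to 0.96). The experiment contrast could not be fitted with an array left out, since no residual degrees of freedom remain, and counts over both experiments need all 4 arrays. Scaling to the 75th percentile moved the median of all genes from 0.02 to 0.07. Signal over background limits F2rl3 in siControl and F2rl1 on all arrays.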
